A study of Danio rerio with 6 samples.

Results

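The genes cdh1, epcam and cdh2 were examined in RNAseq counts of pax8:DsRed-positive zebrafish cells. They were chosen by their Ensembl identifiers, as 3 of the 32266 genes counted. The 3 genes were followed in all 6 samples, together with the ratios of cdh1 and of epcam to cdh2 within each sample. All 3 passed the filter on low counts in both comparisons described here.

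Cells were sorted by flow cytometry from embryos carrying the pax8:DsRed transgene, at late stages of the OEPD. There the pax8 promoter marks both the kidney precursors and the OEPD, the otic-epibranchial progenitor domain that forms the inner ear. The 3 atoh1b-MO samples (replicates 2, 4 and 5) derived from embryos that received an atoh1b morpholino, an antisense oligomer that blocks the protein of its target. The 3 ctrl samples (replicates 1, 2 and 3) carried the same transgene and are labelled wild type. For atoh1b-MO samples the genotype label instead gives dlx3b/4b knockdown, in conflict with the sample titles and the study. Groups follow the titles. A morpholino lowers protein in the whole embryo and need not lower the transcript. The target was not checked here, since atoh1b lies on a scaffold outside the placed chromosomes according to the study. Nothing in the labels says whether samples came from separate clutches, so the tests measure only the spread between these samples.

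E-cadherin, encoded by cdh1, joins epithelial cells by binding the same molecule on the neighbouring cell, and its cytoplasmic tail is held to actin through the catenins. EpCAM is a membrane protein of epithelia and is prominent in the early zebrafish skin. N-cadherin, encoded by cdh2, plays the equivalent role in the neural tube, the somites and other mesodermal derivatives. A trade of E-cadherin for N-cadherin accompanies many epithelial to mesenchymal transitions. The otic placode, which forms later from the OEPD, is an epithelial thickening beside the hindbrain.

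The total count per sample lay between 24120228 and 29226198 in atoh1b-MO and between 28701625 and 37169850 in ctrl samples. A floor of 3 counts corresponded to 0.0807 to 0.124 CPM (counts scaled to the library total). Each of the 3 genes had at least 2807 counts in every sample. In marker lists ctrl 3 stood apart. The study dismissed a diverging wild-type sample before testing without giving its number, and ctrl 3 was taken here to be that sample. The summed level of 9 pronephros markers was 1506 to 2174 CPM in atoh1b-MO samples and 1994 to 2197 CPM in ctrl 1 and 2, but 152 CPM in ctrl 3. For 9 neural markers the sum was 134 to 663 CPM in atoh1b-MO samples and 156 to 216 CPM in ctrl 1 and 2, against 1500 CPM in ctrl 3. The OEPD list held 995 to 1250 CPM in atoh1b-MO samples, 1425 and 1777 CPM in ctrl 1 and 2, and 547 CPM in ctrl 3. This low sum did not reflect the whole list, as 5 of its 12 genes were lowest in ctrl 3, against 28.7% of all genes. Its most abundant genes were those listed as pax2 (ENSDARG00000028148), pax8 and dlx3. In ctrl 3 they stood at 0.131, 0.056 and 1.35 of their level in ctrl 1. The genes listed as pax2 belong to the pronephros list as well. Each result is therefore given for 5 samples, without ctrl 3, and for all 6.

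Gene positions are those deposited with the counts, taken as GRCz11 from the study although the labels name GRCz10. By these, cdh1 (ENSDARG00000102750) lies on the minus strand of chromosome 7. It runs from 52788342 to 52847585, with 17 merged exon blocks that add up to 4613 bases. The epcam gene (ENSDARG00000040534) is much more compact. It occupies the plus strand of chromosome 13 from 8508749 to 8511340, in 10 exon blocks of 1476 bases. The cdh2 gene (ENSDARG00000018693) spans 17840340 to 17919655 on the plus strand of chromosome 20, with 16 exon blocks of 4853 bases. No other annotated gene overlaps the exons of any of the 3, so their reads are not shared with an overlapping gene. Levels are given per length, as CPM with TMM scaling divided by the exon length in kilobases (RPKM).

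The level of cdh1 differed little among the atoh1b-MO samples and more among the controls. It was 39.9, 36.3 and 33.6 RPKM in atoh1b-MO 2, 4 and 5, against 31.0, 49.5 and 50.2 RPKM in ctrl 1, 2 and 3. All atoh1b-MO samples lay between ctrl 1 and the other two controls, and the groups overlapped. The mean was 36.6 ± 3.15 RPKM in atoh1b-MO (SD, n = 3) and 43.6 ± 10.9 RPKM in ctrl samples (SD, n = 3). Leaving out ctrl 3, the control mean was 40.3 ± 13.1 RPKM (SD, n = 2).

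The epcam gene showed the same order of samples at the extremes with a wider spread. Its level was 137, 85.8 and 91.7 RPKM in atoh1b-MO 2, 4 and 5, against 68.5, 156 and 208 RPKM in ctrl 1, 2 and 3. Again ctrl 1 was the lowest and ctrl 3 the highest of all samples, and atoh1b-MO 2 was the highest of its group. The mean was 105 ± 27.8 RPKM in atoh1b-MO (SD, n = 3) and 144 ± 70.7 RPKM in ctrl samples (SD, n = 3). Among the controls alone, epcam varied 3.04-fold and cdh1 1.62-fold.

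In contrast, cdh2 was nearly constant in 5 of the 6 samples. It measured 88.6, 91.9 and 87.3 RPKM in atoh1b-MO 2, 4 and 5, against 86.3, 79.2 and 137 RPKM in ctrl 1, 2 and 3. The single high value belonged to ctrl 3, which exceeded ctrl 1 by 1.59-fold and ctrl 2 by 1.73-fold. All 9 neural markers were highest in ctrl 3 as well, against 27.8% of all genes, and none was at 0. So were 5 of 6 paraxial mesoderm and muscle markers and 6 of 7 notochord markers. Markers of the periderm, the outermost layer of the embryonic skin, went the same way, with 8 of 11 highest in ctrl 3. The same was true of 1 of 12 OEPD, 1 of 9 pronephros, 1 of 4 neural crest and 0 of 5 blood and endothelium markers. In atoh1b-MO 2, whose neural markers summed to 663 CPM, cdh2 lay between the other samples of its group. The part of neural, mesodermal, notochord or periderm cells in the level of cdh2 was not tested. In atoh1b-MO samples the mean was 89.2 ± 2.36 RPKM (SD, n = 3), a coefficient of variation of 2.64%. In ctrl samples it was 101 ± 31.7 RPKM (SD, n = 3), or 82.8 RPKM with a coefficient of variation of 6.04% without ctrl 3 (n = 2).

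**Figure D1:**
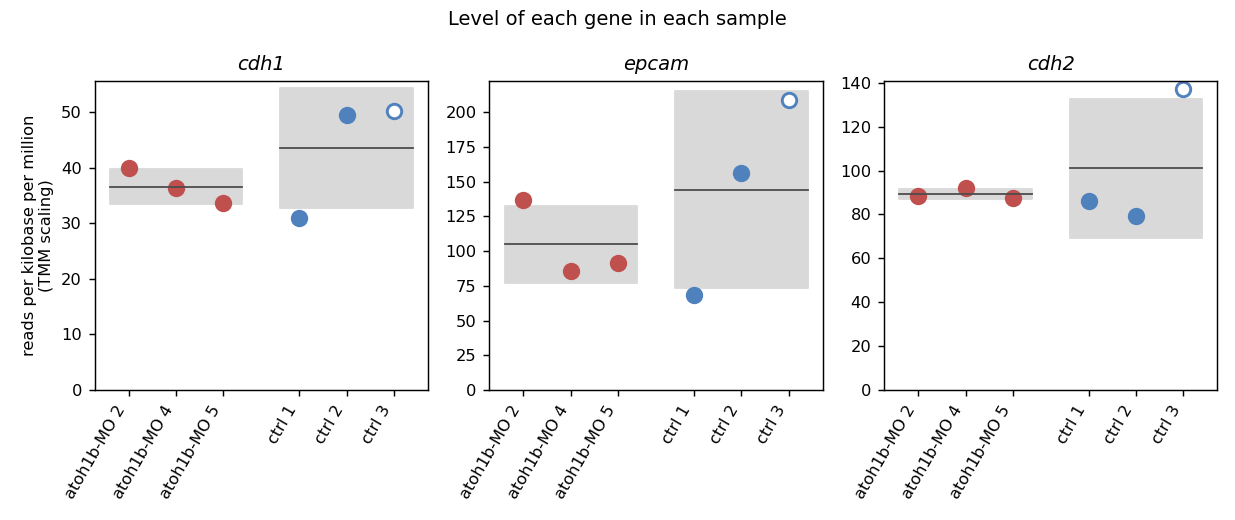
Level of cdh1, epcam and cdh2 in each sample, in RPKM with TMM scaling; each panel has its own axis from 0. Points are samples (red, atoh1b-MO; blue, ctrl; open, ctrl 3), lines are group means and grey bands are ± 1 SD over 3 samples. For cdh1 and epcam the 3 atoh1b-MO samples sit inside the range of the controls, and for cdh2 only ctrl 3, at 137, stands away from the rest.

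Compared with each other, cdh1 was the lowest of the 3 genes in every sample. The order of epcam and cdh2 was not fixed. In atoh1b-MO 4 and in ctrl 1 epcam lay below cdh2, and in the other four samples above it. Over all samples the mean was 124 ± 52.7 RPKM for epcam, 95.1 ± 21.1 RPKM for cdh2 and 40.1 ± 8.12 RPKM for cdh1 (SD, n = 6).

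Whether depletion of Atoh1b changed these genes was first tested with 5 samples, ctrl 1 and 2 against the 3 atoh1b-MO samples. None of the 3 genes passed the threshold. By the edgeR quasi-likelihood test, 110 of 18397 genes (0.598%) were differentially expressed genes (DEGs) at an adjusted p below 0.1, and 0 of these 3. An unadjusted p below 0.05 was found for 11.2% of all genes tested. DESeq2, which called 3.79% of genes, and limma voom, which called 0.457%, also called 0 of the 3, and 0 of the 3 had an unadjusted p below 0.05 by any of these tools. The log2 fold change of cdh1 was -0.13 (SE 0.18, 95% interval -0.56 to 0.29, edgeR adjusted p = 0.832). That of epcam was -0.10, with a wider interval (SE 0.33, -0.86 to 0.66, edgeR adjusted p = 0.941). For cdh2 it was 0.11 with the narrowest interval (SE 0.07, -0.06 to 0.29, edgeR adjusted p = 0.622). The intervals of cdh1 and epcam leave room for changes of the listed size in either direction. That of cdh2 leaves room for the listed increase but not for a decrease of the same size.

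With 5 samples, cdh2 was the only one of the 3 genes whose groups did not overlap, all atoh1b-MO samples lying above ctrl 1 and 2. Such a separation in either direction was found for 29.8% of all genes tested, and for 15.1% with atoh1b-MO higher. The log2 fold changes of cdh1 and epcam hung on single controls. Without ctrl 1 they were -0.44 and -0.57, and without ctrl 2 they were 0.23 and 0.61. Leaving out atoh1b-MO 4 also turned the sign of epcam, to 0.03.

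When ctrl 3 was included, the result was again 0 of the 3 genes, here against a background of 0 DEGs among 17874 genes (0.0%) by edgeR, where 1040 genes had an unadjusted p below 0.05. DESeq2 called 112 genes (0.578%) and limma voom 21 (0.117%), with none of the 3 among them. The log2 fold change was -0.25 for cdh1 (SE 0.19, 95% interval -0.71 to 0.21, edgeR adjusted p = 0.864). For epcam it was -0.46 (SE 0.40, -1.41 to 0.48, edgeR adjusted p = 0.878). For cdh2 it was -0.18 (SE 0.21, -0.67 to 0.31, edgeR adjusted p = 0.898). The groups overlapped for all 3 genes, whereas 13.2% of the genes tested had groups that did not. The sign for cdh2 was set by ctrl 3: without it the value was 0.11, and with limma voom, which weights samples, 0.06.

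**Figure D2:**
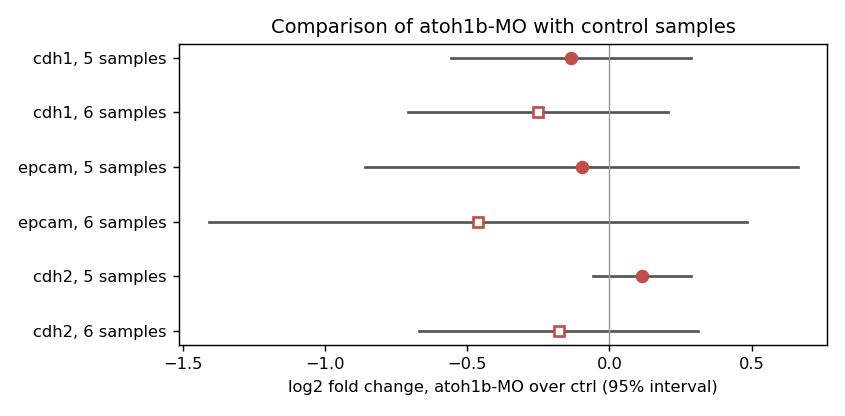
Log2 fold change of atoh1b-MO over ctrl for each gene by edgeR, with 95% intervals as lines. Filled circles are the comparison of 5 samples and open squares that of 6; every interval includes 0, and that of cdh2 with 5 samples, from -0.06 to 0.29, is the narrowest.

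The ratio to cdh2 was then taken within each sample, where it needs no scaling between samples. Per kilobase, cdh1 reached 0.450, 0.395 and 0.385 of cdh2 in atoh1b-MO 2, 4 and 5, against 0.360, 0.625 and 0.365 in ctrl 1, 2 and 3. Here ctrl 2 was alone at the top and the other five samples formed a narrow range. The level of cdh1 had placed ctrl 3 beside ctrl 2, but the ratio placed it beside ctrl 1, since cdh2 was high in ctrl 3. Of the reads of both genes, cdh1 held 30.0%, 27.3% and 26.8% in atoh1b-MO 2, 4 and 5, against 25.5%, 37.3% and 25.8% in ctrl 1, 2 and 3. The 95% Wilson intervals ran from 29.3% to 30.7%, 26.6% to 28.0% and 26.2% to 27.5% in these atoh1b-MO samples. In ctrl 1, 2 and 3 they ran from 24.8% to 26.2%, 36.6% to 37.9% and 25.2% to 26.3%. Such intervals hold counting error alone, are too narrow where PCR copies of a molecule were counted as separate reads, and say nothing of the spread between samples.

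For epcam the ratio per kilobase to cdh2 was 1.54, 0.934 and 1.05 in atoh1b-MO 2, 4 and 5, against 0.793, 1.97 and 1.52 in ctrl 1, 2 and 3. The highest and the lowest ratio were both found in controls. In share of the reads of both genes, epcam took 31.9%, 22.1% and 24.2% in atoh1b-MO 2, 4 and 5, against 19.4%, 37.4% and 31.6% in ctrl 1, 2 and 3. The 95% Wilson intervals ran from 31.2% to 32.7%, 21.4% to 22.8% and 23.6% to 24.9% in these atoh1b-MO samples, against 18.8% to 20.1%, 36.8% to 38.1% and 31.0% to 32.1% in ctrl 1, 2 and 3. No order by group was visible, and atoh1b-MO 2 lay next to ctrl 3.

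On the log2 scale, the mean cdh1 to cdh2 ratio was -1.29 ± 0.12 in atoh1b-MO (SD, n = 3) and -1.08 ± 0.56 in ctrl 1 and 2 (SD, n = 2). The difference of -0.21 gave p = 0.7 in an exact permutation test, two-sided, for which 0.1 is the lowest p that 3 against 2 samples can reach. For epcam to cdh2 the means were 0.20 ± 0.38 in atoh1b-MO (SD, n = 3) and 0.32 ± 0.93 in ctrl 1 and 2 (SD, n = 2), a difference of -0.12 (p = 0.9 in the same exact test). With all 6 samples the difference was -0.09 for cdh1 (exact permutation test, p = 1) and -0.22 for epcam (exact permutation test, p = 0.8), where 0.1 was also the lowest p in reach. All of these differences were smaller than the spread between the controls. The design could not have reached a p of 0.05. Without ctrl 1 the 5-sample differences were -0.61 for cdh1 and -0.78 for epcam, and without ctrl 2 they were 0.19 and 0.53. Leaving out atoh1b-MO 4 gave 0.03 for epcam. With 6 samples, leaving out ctrl 2 gave 0.18 for cdh1 and 0.07 for epcam, and a comparison of group medians gave 0.11 for cdh1.

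**Figure D3:**
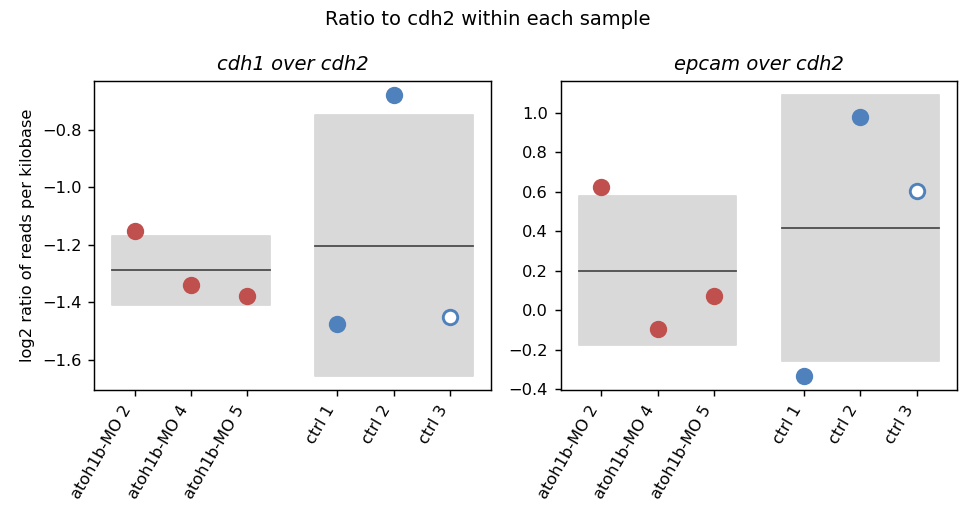
Log2 ratio of reads per kilobase of cdh1 (left) and epcam (right) to cdh2 within each sample; 0 means equal levels per kilobase. Points are samples (red, atoh1b-MO; blue, ctrl; open, ctrl 3), with group means as lines and ± 1 SD as grey bands over 3 samples. The atoh1b-MO samples lie between the lowest and the highest control in both panels, and ctrl 2 has the highest ratio of all samples, -0.68 for cdh1 and 0.98 for epcam.

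The spread within groups was set beside that of all genes. From ctrl 1 to ctrl 2, 7.62% of 17874 genes differed at least as much as epcam, which was 2.28-fold higher in ctrl 2, and 8.03% were at least 2-fold higher there. For cdh1, higher in ctrl 2 by 0.67 on the log2 scale, the share that differed as much was 17.5%. For cdh2, at 0.918 of its level in ctrl 1, it was 69.6%. Over the 5 samples, cdh2 had a range of 0.21 on the log2 scale, smaller than that of all but 8.90% of genes, and the median gene had a range of 0.64. Genes were not matched for level here, and cdh2 had at least 10967 counts in every sample. The range over the same samples was 0.67 for cdh1 and 1.19 for epcam. With ctrl 3, the range of cdh2 was 0.79, close to the 0.86 of the median gene.

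The summed level of the periderm markers had the same order of samples as epcam. The most abundant of these markers were krt4 and krt5, which weigh most in the sum. Single markers did not all follow, as 8 of 11 were lowest in ctrl 1 and 8 of 11 highest in ctrl 3. Among all genes, 18.2% were lowest in ctrl 1 and 27.8% highest in ctrl 3. All 11 periderm markers were higher in ctrl 2 than in ctrl 1, which was true of 49.5% of all genes. Their median log2 difference was 1.89. All 11 were highest in atoh1b-MO 2 among the atoh1b-MO samples, against 36.9% of all genes. Other lists shared this, with 9 of 9 neural, 6 of 7 notochord and 4 of 4 neural crest markers. It held for 4 of 12 OEPD, 2 of 9 pronephros, 2 of 6 paraxial mesoderm and 0 of 5 blood and endothelium markers. Higher in ctrl 2 than ctrl 1 were 8 of 9 neural, 6 of 7 notochord and 3 of 4 neural crest markers. So were 9 of 12 OEPD, 2 of 9 pronephros, 1 of 6 paraxial mesoderm and 1 of 5 blood and endothelium markers. The summed level of the periderm markers was 3922, 1750.5 and 1838 CPM in atoh1b-MO 2, 4 and 5, against 1693, 6056 and 8246 CPM in ctrl 1, 2 and 3. None of the periderm markers was at 0. The part of periderm cells in the levels of epcam and cdh1 was not tested. In such bulk samples, fewer cells of a type and less RNA per cell cannot be told apart.

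The 3 most abundant genes of the list of epithelial junctions and keratins were keratins, the intermediate filament proteins of epithelia. Among them, krt4 reached 799, 345 and 351 RPKM in atoh1b-MO 2, 4 and 5, against 335, 1176 and 1746 RPKM in ctrl 1, 2 and 3. Its partner in abundance, krt5, stood at 449, 198 and 205 RPKM in atoh1b-MO 2, 4 and 5, against 199, 702 and 934 RPKM in ctrl 1, 2 and 3. For krt18a.1 the levels were 323, 200.3 and 235 RPKM in atoh1b-MO 2, 4 and 5, against 183, 595 and 493 RPKM in ctrl 1, 2 and 3. Each of these keratins varied more between ctrl 1 and ctrl 2 than epcam did. Of the 37 genes of the list that were tested, 35 were higher in ctrl 2 than in ctrl 1, with a median log2 difference of 1.35. Leaving out the genes that the periderm list also holds, 27 of 29 were higher and the median was 0.70. In ctrl 3, 18 of the 37 were highest of the 6 samples and 6 were lowest, against 27.8% and 28.7% of all genes. The 6 included the junction genes cldnb, cldn7b and cldna, with 73.3, 59.4 and 29.2 RPKM in ctrl 3. In ctrl 1 these had 141, 104 and 55.8 RPKM, and in ctrl 2 175, 145 and 127 RPKM. By edgeR with 5 samples, 0 of the 37 were DEGs, against 0.598% of all genes. An unadjusted p below 0.05 was found for 2, against 11.2% of all genes. DESeq2 and limma voom also called 0, against 3.79% and 0.457% of all genes. The median log2 fold change of the list was -0.19, against 0.01 for all genes.

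**Figure D4:**
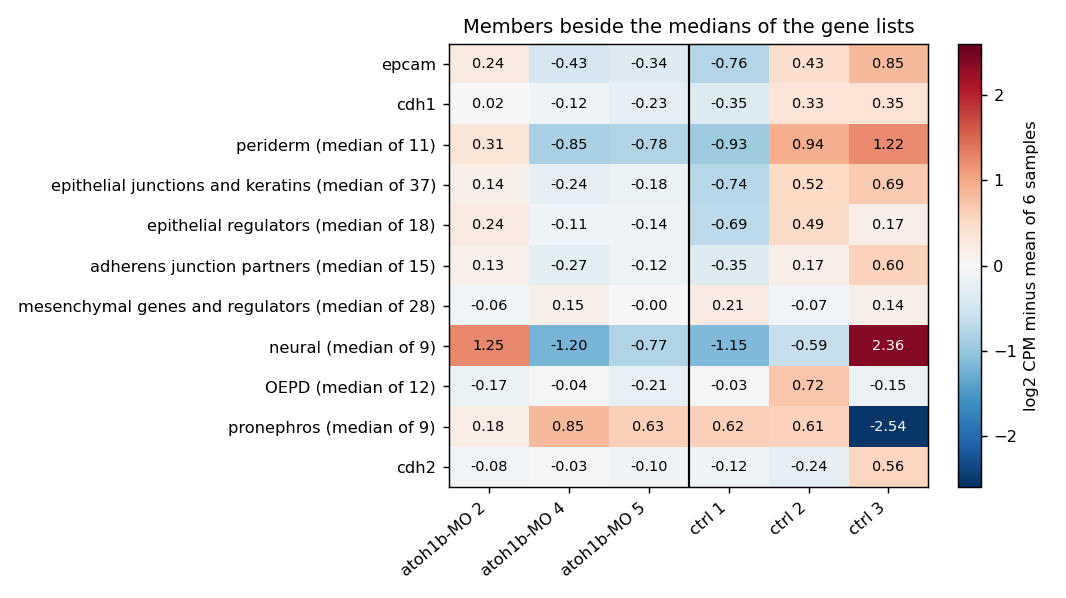
Log2 CPM of each gene minus its mean over the 6 samples, for epcam, cdh1 and cdh2, and the median of the same value over gene lists. The lists shown are periderm, epithelial junctions and keratins, epithelial regulators, adherens junction partners, mesenchymal genes, neural, OEPD and pronephros. Columns are samples, with atoh1b-MO left of the line and ctrl right of it. Red is above and blue below the mean. The rows for epcam, cdh1 and the periderm list are low in ctrl 1 and high in ctrl 2 and 3, while cdh2 is high in ctrl 3 alone.

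Regulators of epithelia were also mixed in ctrl 3, where 9 of 18 genes tested were highest and 4 lowest, against 27.8% and 28.7% of all genes. Of the 18, 17 were higher in ctrl 2 than in ctrl 1, with a median log2 difference of 1.22. The gene listed as spint1a had 0 counts in every sample. The exception, klf17, a transcription factor gene known in zebrafish from the hatching gland and the early blood, was the most abundant of the list. It measured 148, 214 and 277 RPKM in atoh1b-MO 2, 4 and 5, against 219.8, 198 and 25.5 RPKM in ctrl 1, 2 and 3. Thus klf17 was lowest in ctrl 3, where cdh1 and epcam were highest. The summed level of 5 blood and endothelium markers was 1489, 2197 and 2502 CPM in atoh1b-MO 2, 4 and 5, against 3456, 2711 and 111 CPM in ctrl 1, 2 and 3, and its part in the level of klf17 was not tested. The protease inhibitor gene spint2 stood at 18.9, 22.9 and 20.8 RPKM in atoh1b-MO 2, 4 and 5, against 20.1, 31.6 and 20.2 RPKM in ctrl 1, 2 and 3. A gene listed as grhl2 (ENSDARG00000061974), of a transcription factor family that maintains epithelial junctions, had 21.3, 21.3 and 17.7 RPKM in atoh1b-MO 2, 4 and 5, against 18.8, 25.2 and 5.93 RPKM in ctrl 1, 2 and 3. High cdh1 and epcam in ctrl 3 were thus not matched by these 3 regulators. By edgeR, 0 of the 18 genes were DEGs with 5 samples, against 0.598% of all genes. An unadjusted p below 0.05 was found for 1, against 11.2% of all genes. That gene was grhl2a (log2 fold change 1.98, edgeR adjusted p = 0.165). DESeq2, which called 3.79% of all genes, called grhl2a alone, and limma voom, which called 0.457%, called 0.

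The catenins link cadherins to actin, and they were measured beside cdh1 and cdh2. The β-catenin gene ctnnb1 was by far the most abundant, with 455, 444 and 448 RPKM in atoh1b-MO 2, 4 and 5, against 452, 431 and 427 RPKM in ctrl 1, 2 and 3. Its paralogue ctnnb2 had 115, 113 and 118 RPKM in atoh1b-MO 2, 4 and 5, against 123, 131 and 127 RPKM in ctrl 1, 2 and 3. Both were nearly level across all 6 samples, ctrl 3 included. For ctnnb2, all atoh1b-MO samples lay below all ctrl samples, as for 5.82% of genes tested with 6 samples, but the log2 fold change was -0.14 with 5 samples (edgeR adjusted p = 0.539) and -0.14 with 6 (edgeR adjusted p = 0.848).

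The α-catenin gene ctnna1 measured 73.9, 67.5 and 69.2 RPKM in atoh1b-MO 2, 4 and 5, against 67.5, 79.7 and 69.1 RPKM in ctrl 1, 2 and 3. The p120-catenin gene ctnnd1, whose product binds near the membrane end of the tail, had 40.7, 37.7 and 35.8 RPKM in atoh1b-MO 2, 4 and 5, against 38.1, 43.3 and 39.0 RPKM in ctrl 1, 2 and 3. Neither followed the difference that cdh1 showed between ctrl 1 and ctrl 3. The δ-catenin gene ctnnd2b, at a lower level, varied more than cdh1, with 8.15, 1.95 and 2.10 RPKM in atoh1b-MO 2, 4 and 5, against 2.09, 3.99 and 13.4 RPKM in ctrl 1, 2 and 3. It was highest in ctrl 3, and in atoh1b-MO 2 among its group. The neural α-catenin gene ctnna2 was close to 0, with at most 0.203 RPKM. A gene listed as jup (ENSDARG00000070787), whose product plakoglobin serves both adherens junctions and desmosomes, came closer to cdh1 in its order of samples. It had 67.9, 48.7 and 55.4 RPKM in atoh1b-MO 2, 4 and 5, against 50.9, 72.9 and 89.9 RPKM in ctrl 1, 2 and 3. Of the 15 genes of the adherens junction list, 13 were higher in ctrl 2 than in ctrl 1, against 49.5% of all genes. Of the 6 samples, ctrl 3 was highest for 9 and lowest for 1, against 27.8% and 28.7% of all genes. Among the atoh1b-MO samples, atoh1b-MO 2 was highest for 13 of the 15, against 36.9% of all genes. With 5 samples by edgeR, 0 of the 15 were DEGs, against 0.598% of all genes. An unadjusted p below 0.05 by edgeR was found for 1, against 11.2% of all genes. DESeq2 and limma voom also called 0, against 3.79% and 0.457% of all genes. The median log2 fold change of the list was -0.07.

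On the side of the mesenchymal genes, the high value of cdh2 in ctrl 3 was met by part of the list. Of 28 genes tested, 5 were higher in ctrl 2 than in ctrl 1, and 11 were highest in ctrl 3 while 13 were lowest there. Among all genes, 27.8% were highest and 28.7% lowest in ctrl 3. The most abundant were both genes listed as fn1, which encode fibronectin, an extracellular matrix protein, and snai2, a repressor gene of the Snail family. The gene ENSDARG00000006526, listed as fn1, had 53.8, 91.5 and 92.2 RPKM in atoh1b-MO 2, 4 and 5, against 98.2, 93.9 and 35.8 RPKM in ctrl 1, 2 and 3. The gene snai2 had 32.9, 40.4 and 31.4 RPKM in atoh1b-MO 2, 4 and 5, against 37.8, 30.0 and 24.6 RPKM in ctrl 1, 2 and 3. Both were lowest in ctrl 3, where cdh2 was highest.

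The other fn1 gene, ENSDARG00000019815, was the only DEG by edgeR among the 111 genes of the 5 lists on adhesion and its regulators that were tested with 5 samples. It was higher in atoh1b-MO, with 84.4, 100.2 and 77.8 RPKM in atoh1b-MO 2, 4 and 5, against 45.8 and 51.7 RPKM in ctrl 1 and 2 (log2 fold change 0.85, SE 0.12, edgeR adjusted p = 0.043). The level in ctrl 3 was 93.4 RPKM, between those of atoh1b-MO 2 and 4. With 6 samples the log2 fold change was 0.46 (edgeR adjusted p = 0.858, unadjusted p = 0.139). The 1 call among 111 genes stood beside 0.598% of all genes, or 0.451% counting higher genes alone, and 7 of the 111 had an unadjusted p below 0.05, against 11.2% of all genes. DESeq2, which called 3.79% of all genes, called 4 of 112 with 5 samples, this fn1 gene and grhl2a as higher and snai1a and tbx16 as lower in atoh1b-MO. By edgeR, snai1a, another Snail repressor gene, had a log2 fold change of -0.66 (adjusted p = 0.204). It measured 15.4, 19.0 and 19.1 RPKM in atoh1b-MO 2, 4 and 5, against 33.1, 23.4 and 13.5 RPKM in ctrl 1, 2 and 3, so ctrl 3 lay below every atoh1b-MO sample. With 6 samples, 0 of the 111 genes were called by edgeR, DESeq2 or limma voom, against 0.0%, 0.578% and 0.117% of all genes. By edgeR 2 had an unadjusted p below 0.05, against 5.82% of all genes.

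Among 21 cadherin genes, 13 of which were tested, cdh2 and cdh1 were the second and the fourth by mean level. The highest mean belonged to cdh11, a type II cadherin gene of mesenchyme, with 83.2, 142 and 130 RPKM in atoh1b-MO 2, 4 and 5, against 153, 128 and 19.8 RPKM in ctrl 1, 2 and 3. Next to cdh1 stood cdh6, another type II cadherin gene, with 40.3, 52.5 and 47.8 RPKM in atoh1b-MO 2, 4 and 5, against 50.5, 43.5 and 24.2 RPKM in ctrl 1, 2 and 3. The mean was 43.1 ± 10.3 RPKM for cdh6 and 40.1 ± 8.12 RPKM for cdh1 (SD, n = 6). That of cdh11 was 109 ± 49.8 RPKM (SD, n = 6). These SDs span samples and do not measure a difference between genes within a sample. Within samples, cdh11 lay above cdh2 in atoh1b-MO 4 and 5 and in ctrl 1 and 2. The level of cdh6 lay above that of cdh1 in all atoh1b-MO samples and ctrl 1, and below it in ctrl 2 and 3. Both cdh11 and cdh6 were lowest in ctrl 3, so the order changed there and cdh2 came first and cdh1 second. In atoh1b-MO 2 as well cdh2 lay above cdh11, and cdh1 had rank 5 in atoh1b-MO 5 and rank 3 in ctrl 2, so these ranks were not fixed. The kidney cadherin gene cdh17 lay at 23.4 to 43.9 RPKM in atoh1b-MO samples, against 27.4 ± 1.83 RPKM in ctrl 1 and 2 (SD, n = 2) and 1.67 RPKM in ctrl 3. The remaining cadherins had means of at most 3.87 RPKM. With 5 samples, 0 of the 13 tested were DEGs by edgeR, against 0.598% of all genes. By the same test 0 had an unadjusted p below 0.05, against 11.2% of all genes. DESeq2, which tested 14, and limma voom also called 0, against 3.79% and 0.457% of all genes.

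**Figure D5:**
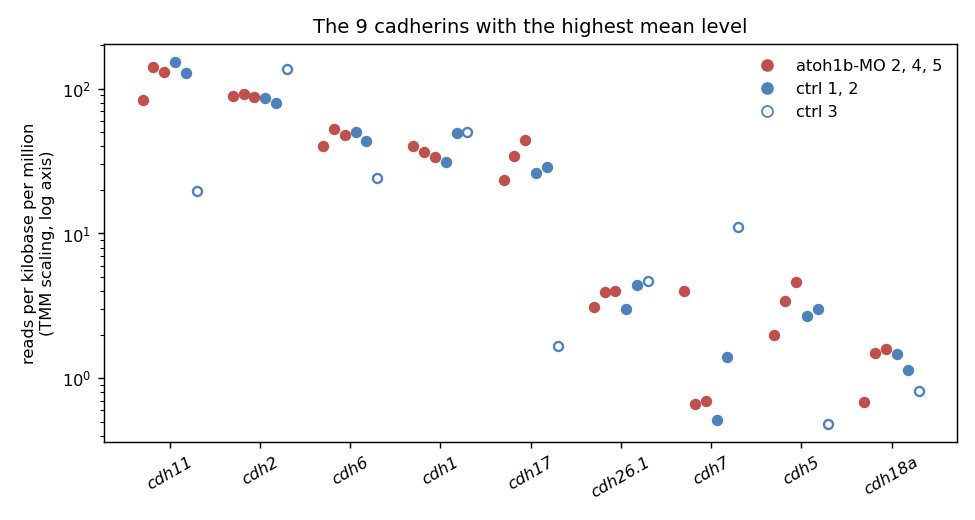
Level of the 9 cadherin genes with the highest mean, in RPKM with TMM scaling on a log axis; points are samples, in the order atoh1b-MO 2, 4 and 5 (red), ctrl 1 and 2 (blue) and ctrl 3 (open). In ctrl 3, cdh11 (19.8) and cdh17 (1.67) fall far below the other samples, and cdh2 (137) lies above them.

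The genes closest to each of the 3 in their pattern over the 6 samples were sought by the root mean square difference of log2 CPM centred on the mean of each gene, among 17873 genes. For cdh1 these were siae (0.046), gdpd1 (0.056), amotl2b (0.073), fosl2 (0.074) and glrx (0.075), where the median gene was at 0.394. The closest to epcam were mgst2 (0.077), si:dkeyp-97a10.3 (0.102), sh3d21 (0.113), sh3d19 (0.120) and pc (0.125), with the median gene at 0.623. Those closest to cdh2 were gstm3 (0.033), zeb1 (0.052), atp5mf (0.056), anxa3b (0.057) and rps21 (0.057), with the median gene at 0.398. Of these 15 genes, zeb1 (ENSDARG00000013207), a zinc finger repressor gene of the mesenchymal list, belonged to the lists used here. It had 11.3, 10.5 and 10.3 RPKM in atoh1b-MO 2, 4 and 5, against 10.1, 9.76 and 16.2 RPKM in ctrl 1, 2 and 3, and so shared the single high value in ctrl 3.

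Among themselves, cdh1 and epcam were not each other's nearest genes. Their difference was 0.313, which ranked cdh1 488th for epcam and epcam 5015th for cdh1. Between cdh1 and cdh2 the difference was 0.274, and between epcam and cdh2 it was 0.459. The patterns share libraries and rest on 6 points, so these distances are descriptions.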

How the data were processed

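The members and gene lists were chosen with earlier results of these data known. The authors deposited raw counts per gene, made from unique alignments with featureCounts (version 1.5.3 per the labels). The study's methods name another version of featureCounts, after alignment with GSNAP to GRCz11. The labels name GRCz10, but the deposited gene positions were used as those of GRCz11, and the assembly was not checked. The library preparation in the study's methods differs from that in the labels, and whether counting used strand is not given in the sources used here. Gene length is the exon length deposited beside the counts. The 92 spike-in rows had 0 counts and were left out.

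Samples were grouped by title. Counts were fitted with edgeR (version 4.0.16, R version 4.3.3) using TMM scaling, filterByExpr, the quasi-likelihood test and Benjamini-Hochberg adjustment over all genes tested, for ctrl 1 and 2 against atoh1b-MO 2, 4 and 5, and for all 6 samples. DEGs had an adjusted p below 0.1, the study's false discovery rate of 10%. The clutch term of the study's model is not in the labels and was not fitted. SEs were derived from the test. The 6-sample scaling was used for levels. Ratios were compared by exact permutation of samples. Centred values used a prior count of 2. The script was tested on simulated data.

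Symbols came from a gene table that gives several paralogues the same symbol. Symbols without a match (cdh8, nectin3a, cldnh, evplb, krtt1c19e and etv2) were left out. Named were the 3 genes, the catenins ctnnb1, ctnnb2, ctnna1, ctnna2 and ctnnd1, DEGs of each list, the 3 most abundant genes of each list and the 5 nearest patterns per gene. The genes cdh17, ctnnd2b, jup, grhl1, grhl2a, grhl3, snai1a, tbx16, spint1a, cldna, cldnb and cldn7b were named after their values were seen. Alternatives were scaling by library size or by the size factors of DESeq2, the test of DESeq2 (version 1.42.0) or of limma voom (version 3.58.1, with sample weights), fits without the low-count filter, a threshold of 0.05, 5 counts added before ratios, group medians and leaving out each replicate.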

Additional observations from a re-analysis of the deposited data

How the results depend on the processing

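No fold change of the 3 genes crossed the threshold under any of the 63 alternatives tried, with adjusted p-values between 0.390 and 1.00, and its sign turned in 5 of them. Unadjusted p-values are not given for the 5-sample fits that keep a single control. In the other fits, some unadjusted p-values by edgeR were below 0.05. With 6 samples but without ctrl 1 they were 0.0047 for cdh1 and 0.016 for epcam, as below 0.05 for 1160 of 18479 genes. With 5 samples scaled by library size alone it was 0.035 for cdh2, as below 0.05 for 2055 of 18397 genes. The 30 alternatives for the ratios could not reach a p of 0.05 in any case, and the sign turned in 6 of them. Leaving out each replicate in turn moved the 5-sample log2 fold change between -0.44 and 0.23 for cdh1, between -0.57 and 0.61 for epcam (0.03 without atoh1b-MO 4) and between 0.04 and 0.17 for cdh2. With 6 samples the ranges were -0.45 to -0.13 for cdh1, -0.80 to -0.10 for epcam and -0.33 to 0.11 for cdh2. The 5-sample log2 ratio differences ranged from -0.61 to 0.19 for cdh1 and from -0.78 to 0.53 for epcam (0.03 without atoh1b-MO 4). With 6 samples they ranged from -0.22 to 0.18 for cdh1 and from -0.59 to 0.065 for epcam. Group medians turned the 6-sample cdh1 ratio difference to 0.11, and limma voom the 6-sample cdh2 fold change to 0.060; the cause was not tested.

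The number of DEGs with 5 samples was 110. It was 690 with DESeq2, 488 without the filter and 71 at an adjusted p below 0.05, and 13 (without ctrl 1) to 260 (without atoh1b-MO 2) when a replicate was left out. With 6 samples it was 0 by edgeR, 112 by DESeq2 and 21 by limma voom, and 0 to 110 (without ctrl 3) when a replicate was left out. No paired analysis was made, because the labels name neither the clutch nor any other pairing of samples. The groups share only the replicate number 2, which is not known to mark a pair. Each of the 3 genes had at least 2807 counts per sample, so depth limited their values little beside the spread between samples.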
